A study of Mus musculus with 7 samples.

Results

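The interferon regulatory factors (IRFs) are a family of transcription factors, and 8 of its genes (*Irf1*, *Irf2*, *Irf3*, *Irf4*, *Irf5*, *Irf7*, *Irf8* and *Irf9*) were followed here among the 25033 gene symbols counted in each mouse. They were chosen by name and not by their values, though earlier results of these data were known, and all 8 passed the filter on low counts. The cells were lin- bone marrow cells, the progenitor-rich fraction left when cells with markers of mature lineages are removed. They came from 3 *HRP-2* wild type mice (Hrp2+/+, WT) and 4 *HRP-2* knockout mice (Hrp2-/-, KO) of the line C57BL/6N-Hdgfrp2<tm1b (KOMP)Wtsi>/Tcp, 6 to 8 weeks old, with no treatment named. HRP-2 is a chromatin reader with a PWWP domain, and the series asks what its loss does to gene expression in these cells. The knockout is systemic, so every cell of the mouse lacks HRP-2, and by the study's account many homozygous pups die before this age, so the knockout mice are survivors.

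IRF proteins share a DNA-binding domain with conserved tryptophans that reads GAAA repeats. Some of them act in infection: IRF3, IRF5 and IRF7 wait in the cytoplasm until a kinase downstream of a nucleic acid or Toll-like receptor phosphorylates them, and then switch on interferon and cytokine genes. IRF9 carries the DNA contacts of ISGF3, the complex that answers type I interferon, and IRF1 and IRF2 compete for similar sites with mostly opposite effect. IRF4 and IRF8 are lineage factors that bind together with the ETS factors PU.1 and SPIB, and IRF8 is known in bone marrow for steering progenitors towards monocytes and dendritic cells rather than neutrophils.

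The libraries held between 3525665 and 5605158 reads on genes, and the ribosomal RNA precursor *Rn45s* took from 4.94% to 20.6% of them. *Hdgfl2*, which encodes HRP-2, had 228, 156 and 168 reads in the wild type mice and 13, 3, 8 and 2 in the knockout mice (log2 fold change −5.09, SE, the standard error, 0.34, adjusted p = 1.38e-07 in edgeR). Progenitor genes were present in the labelled cells, with *Kit* at 112.0 ± 11.1 CPM (SD, n = 3) and *Myb* at 679 ± 56.4 CPM (SD, n = 3) in WT. CPM here is the count divided by the library total after edgeR's TMM factors. In 3′ end libraries the count does not grow with the length of the transcript, so CPM were compared between genes without a length correction. They are shares of reads and not of molecules, and whether each gene was counted with like efficiency was not tested. Knockout replicate 3 stood apart in the sex-linked genes, where *Xist* was at 0.561 CPM (229.0 to 302.8 CPM elsewhere) and *Ddx3y* at 104.5 CPM (0 to 0.777 CPM elsewhere). The labels give no sex.

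The promoters of 4 members are shown because they hold, or in the case of *Irf7* lack, the elements through which interferon signals and IRF partners act. All 8 members matched the RefSeq promoter table (GRCm38.p6), which runs from 250 bases before to 50 bases after each annotated start. On both strands these were searched for the interferon-stimulated response element (ISRE, GAAANNGAAA), the STAT site (GAS, TTCNNNGAA) and the composite element of ETS and IRF factors (EICE, GGAANNGAAA). Capitals mark a match.
Irf1 (chr11:53769764-53770063, plus strand): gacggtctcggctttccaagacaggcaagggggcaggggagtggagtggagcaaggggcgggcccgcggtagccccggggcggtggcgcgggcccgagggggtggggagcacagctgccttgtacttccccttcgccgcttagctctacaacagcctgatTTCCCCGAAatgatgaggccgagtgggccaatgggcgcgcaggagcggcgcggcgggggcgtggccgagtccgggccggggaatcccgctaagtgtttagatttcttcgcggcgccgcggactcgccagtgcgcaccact
Irf2 (chr8:46739495-46739794, plus strand): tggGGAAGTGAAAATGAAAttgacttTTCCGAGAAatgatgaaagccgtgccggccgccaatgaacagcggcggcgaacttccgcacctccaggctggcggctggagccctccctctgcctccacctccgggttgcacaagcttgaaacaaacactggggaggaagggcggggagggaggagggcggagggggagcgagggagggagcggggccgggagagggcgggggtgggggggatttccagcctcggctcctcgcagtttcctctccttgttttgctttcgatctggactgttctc
Irf8 (chr8:120736108-120736407, plus strand): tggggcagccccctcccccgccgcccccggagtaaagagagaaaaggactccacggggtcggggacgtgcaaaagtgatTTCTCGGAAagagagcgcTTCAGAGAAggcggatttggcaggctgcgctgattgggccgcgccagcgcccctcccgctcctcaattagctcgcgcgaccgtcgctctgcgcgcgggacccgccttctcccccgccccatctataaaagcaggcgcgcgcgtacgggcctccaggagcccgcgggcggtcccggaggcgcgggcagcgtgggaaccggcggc
Irf7 (chr7:141266375-141266674, minus strand): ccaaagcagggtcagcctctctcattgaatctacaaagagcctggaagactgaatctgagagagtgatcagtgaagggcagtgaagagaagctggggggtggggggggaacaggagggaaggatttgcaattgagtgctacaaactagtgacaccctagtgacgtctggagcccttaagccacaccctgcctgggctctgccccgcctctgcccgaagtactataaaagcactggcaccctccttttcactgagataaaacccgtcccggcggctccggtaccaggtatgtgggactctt
The *Irf1* window holds 1 GAS match and that of *Irf8* holds 2. The *Irf2* window holds 1 GAS match and an EICE match that runs into an ISRE match. No match was found in the windows of *Irf3*, *Irf4*, *Irf5*, *Irf7* and *Irf9*, nor in the alternative windows listed for *Irf1*, *Irf8* and *Irf9*, which says only that these letters are not in these windows. Among all 32851 promoters of this length, an ISRE match is found in 3.44%, a GAS match in 8.3% and an EICE match in 2.72%. These matches are descriptions of sequence and do not show that a factor binds there.

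The members spanned a wide range of levels, from *Irf8* at the top to *Irf7* at the bottom in every one of the 7 mice. *Irf8* stood at 1374 ± 33.8 CPM (SD, n = 3) in WT cells, place 52 among the 11265 genes tested by mean level, and made up 69.4% of the summed wild type CPM of the 8 members. *Irf1* followed at 244.4 ± 46.0 CPM (SD, n = 3), below *Irf8* and above *Irf9* in all 7 mice. *Irf9* at 107.5 ± 11.8 CPM (SD, n = 3) lay above *Irf5* in 6 of 7 mice. *Irf5* and *Irf2* could not be put in order, with *Irf5* above *Irf2* in 3 of 7 mice and a ratio of the means of 1.029. *Irf4* lay below *Irf2* in all 7 mice and above *Irf3* in 5 of 7, so the places of *Irf4* and *Irf3* did not differ beyond their spread. *Irf7* was at 25.7 ± 2.71 CPM (SD, n = 3), below *Irf3* in all 7 mice.

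**Figure D1:**
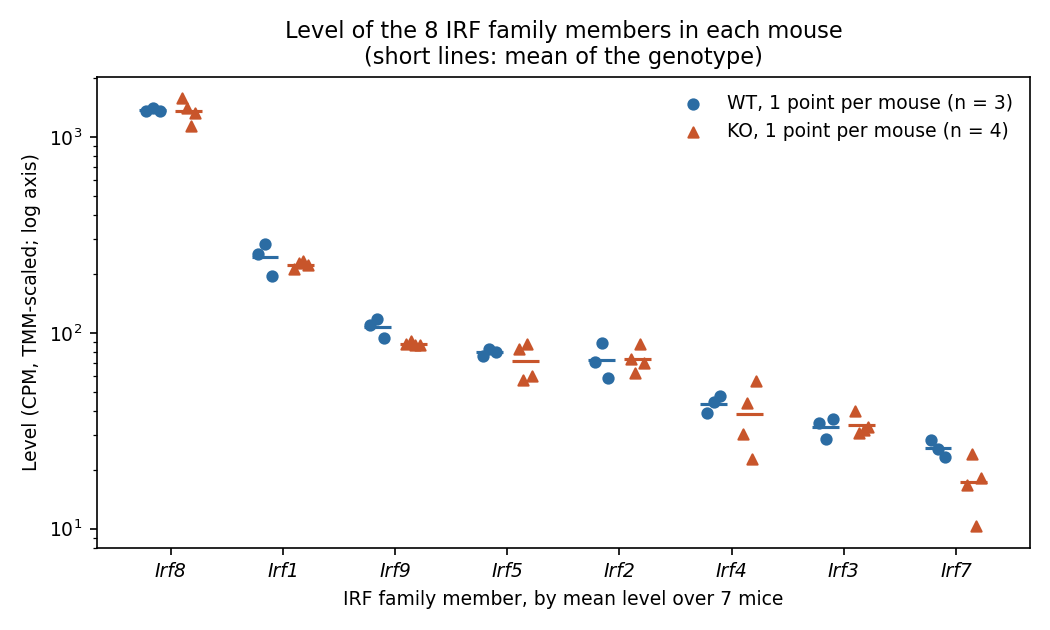
Level of each IRF family member in each mouse, in CPM on a log axis, with wild type mice as circles (n = 3), knockout mice as triangles (n = 4) and the mean of each genotype as a short line. *Irf8* sits between 1144 and 1577 CPM in the 7 mice and *Irf7* between 10.3 and 28.5 CPM.

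No IRF member differed between the genotypes past the threshold of the study, an adjusted p-value of 0.25. With edgeR 0 of 8 members were called (adjusted p = 0.999 for each), where 0.0178% of all genes tested were called, and 0 of 8 were called by DESeq2, limma-voom or edgeR's likelihood ratio test. At an unadjusted p under 0.05 there was 1 member, *Irf7*, and over all genes 3.63%. The log2 fold change, knockout over wild type, was negative for 6 members and positive for 2, with a median of −0.14 where the median over all genes tested was −0.0014. *Irf8*, with 5047 to 8115 reads per mouse, had a 95% interval of the fold from 0.818 to 1.201. *Irf7*, with 55 to 130 reads, had one from 0.460 to 0.980. These intervals are not adjusted for the number of genes, and a difference that missed the threshold is not shown to be absent.

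**Figure D2:**
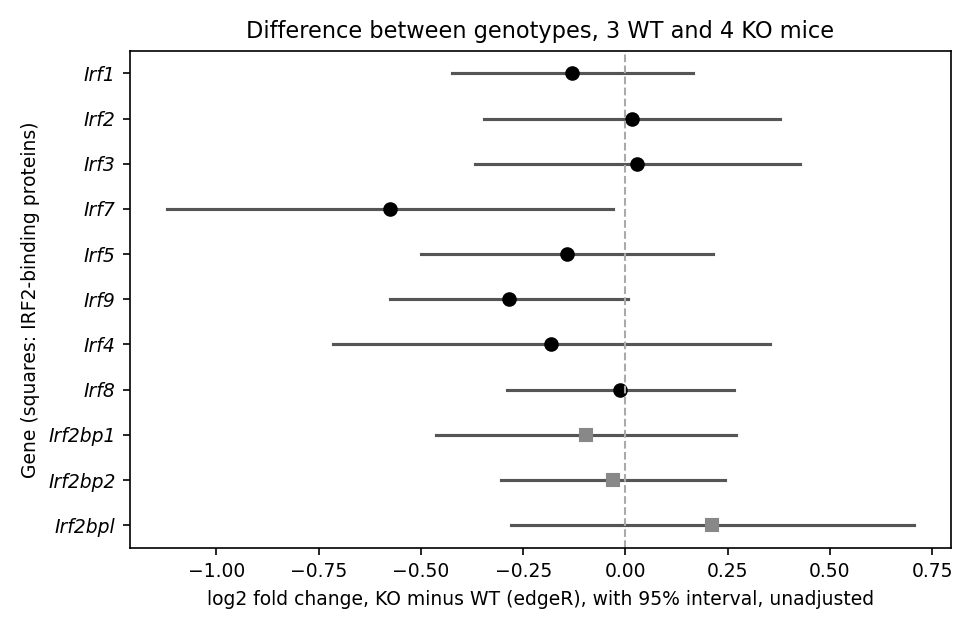
Log2 fold change between knockout and wild type mice for the 8 members (circles) and for 3 genes of IRF2-binding proteins (squares), with lines for the 95% interval, unadjusted. The interval of *Irf7* runs from −1.12 to −0.029, and those of the other 10 genes include 0.

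Of the members that await a signal of infection, *Irf7* showed the greatest difference in the family. IRF7 is the main amplifier of type I interferon, and its gene is itself induced by interferon. It lies on chromosome 7 of GRCm38 from 141262706 to 141266481 on the minus strand. *Irf7* stood at 28.5, 25.5 and 23.1 CPM in wild type replicates 1 to 3 and at 16.7, 24.1, 10.3 and 18.2 CPM in knockout replicates 1 to 4. Knockout replicates 1, 3 and 4 were under the WT range and replicate 2 was within it. On the log2 scale the difference was −0.57 (SE 0.26) with an unadjusted p of 0.0399 and an adjusted p of 0.999 in edgeR. The lowest value was that of knockout replicate 3, and without this mouse the log2 fold change was −0.39. Without knockout replicate 2 it was −0.78. The 3′ end of *Irf7* overlaps an exon of *Phrf1* on the other strand. Whether reads were assigned by strand is not stated, and *Phrf1* itself was at 55.2 ± 0.772 CPM (SD, n = 3) in WT and 53.1 ± 5.90 CPM (SD, n = 4) in KO cells.

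*Irf3*, whose protein is present before infection and starts the first wave of interferon beta, lies on the same chromosome from 44997648 to 45002848. Its level was 34.7, 28.8 and 36.1 CPM in WT and 40.0, 30.8, 32.0 and 32.9 CPM in KO mice. The genotypes overlapped throughout (log2 fold change 0.029, 95% interval −0.37 to 0.43). Within each mouse, the CPM of *Irf3* was 1.13 to 1.56 times that of *Irf7* in WT and 1.28 to 3.11 times in KO mice, ranges that overlap.

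*Irf5*, which drives inflammatory cytokine genes downstream of Toll-like receptors and MYD88, lies on chromosome 6 from 29526625 to 29541871. Its level was 75.9, 83.2 and 80.0 CPM in WT and 82.6, 57.8, 87.8 and 60.0 CPM in KO mice. The knockout mice fell on either side of the narrow wild type range, with replicates 2 and 4 below it and replicate 3 above it (log2 fold change −0.14, SE 0.17). Without knockout replicate 3 it was −0.25, and without knockout replicate 2 it was −0.050. The 3′ end of *Irf5* overlaps an exon of *Tnpo3* on the other strand, which was at 109.8 ± 3.40 CPM (SD, n = 3) in WT and 113.4 ± 24.8 CPM (SD, n = 4) in KO cells.

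*Irf9* was the member whose genotypes did not overlap. It lies on chromosome 14 from 55603571 to 55610030. *Irf9* stood at 109.9, 117.9 and 94.6 CPM in WT and at 87.6, 91.2, 87.1 and 87.0 CPM in KO mice. Each of the 4 KO values was under each of the 3 WT values, and the KO mice lay closer together, with a coefficient of variation of 2.29% against 11.0%. The log2 fold change was −0.28 (SE 0.14, adjusted p = 0.999 in edgeR, unadjusted p = 0.0541). Ranges without overlap were found for 1 of the 8 members and for 5.16% of all genes tested, 2.79% with the knockout mice lower. *Rnf31* overlaps *Irf9* on the same strand away from its 3′ end, at 11.6 ± 4.26 CPM (SD, n = 3) in WT and 10.9 ± 1.02 CPM (SD, n = 4) in KO cells.

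*Stat2*, whose protein joins IRF9 in ISGF3, was not named by the rule for named genes. It had 21.4 ± 4.25 CPM (SD, n = 3) in WT and 22.3 ± 2.27 CPM (SD, n = 4) in KO cells.

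**Figure D3:**
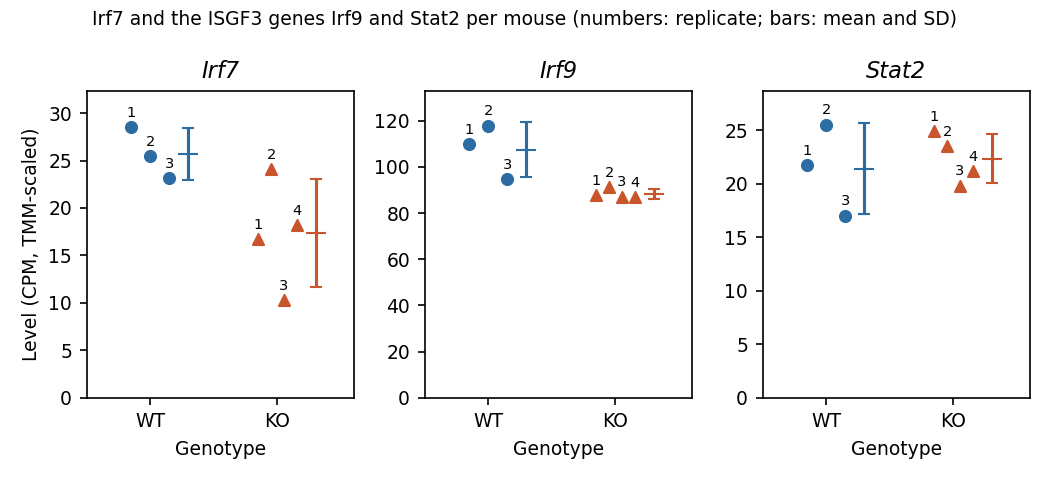
Levels of *Irf7* and of the ISGF3 subunit genes *Irf9* and *Stat2* in CPM, 1 point per mouse numbered by replicate, with bars for mean and SD (n = 3 wild type, n = 4 knockout). The *Irf9* values of the knockout mice, 87.0 to 91.2 CPM, lie below the lowest wild type value of 94.6 CPM, and the genotypes overlap for *Stat2*.

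*Irf1* and *Irf2* encode the competing pair of the family. *Irf1*, an early gene of the interferon response whose protein activates antigen presentation genes, lies on chromosome 11 from 53770014 to 53778374. Its level was 253.6, 285.0 and 194.5 CPM in WT and 211.6, 226.5, 234.1 and 221.2 CPM in KO mice. The spread was wide in WT mice, with a coefficient of variation of 18.8%, and 4.23% in KO mice, which all lay inside the wild type range. The log2 fold change was −0.13 (SE 0.14), −0.0044 without wild type replicate 2 and −0.27 without wild type replicate 3.

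*Irf2*, mostly a repressor at the sites IRF1 uses, lies on chromosome 8 from 46739732 to 46847458. Its level was 70.9, 88.8 and 58.7 CPM in WT and 73.5, 62.1, 88.0 and 70.5 CPM in KO mice, all of the latter within the wild type range (log2 fold change 0.017, 95% interval −0.34 to 0.38). The CPM of *Irf1* was 3.37 ± 0.190 times (SD, n = 3) that of *Irf2* in WT and 3.08 ± 0.424 times (SD, n = 4) in KO mice.

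Among the lineage factors, *Irf8* was the steadiest member in WT mice. It lies on chromosome 8 from 120736358 to 120756694. *Irf8* stood at 1354, 1413 and 1355 CPM in WT and at 1577, 1408, 1144 and 1321 CPM in KO mice. The knockout mice spread to both sides of the wild type values, with replicate 1 highest and replicate 3 lowest (log2 fold change −0.012, SE 0.13). Without knockout replicate 3 it was 0.063, and without knockout replicate 1 it was −0.087. *Spi1*, which encodes the IRF8 partner PU.1 and was named after its values were seen, stood at 149.0 ± 4.42 CPM (SD, n = 3) in WT and 167.3 ± 5.72 CPM (SD, n = 4) in KO cells, with all knockout mice higher (log2 fold change 0.17, SE 0.13, adjusted p = 0.999 in edgeR).

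*Irf4*, a factor of B cells, plasma cells and a subset of dendritic cells, lies on chromosome 13 from 30749226 to 30766976. Its level was 38.8, 44.2 and 47.6 CPM in WT and 30.3, 44.1, 22.8 and 57.1 CPM in KO mice. It was the most variable member among the knockout mice, with a coefficient of variation of 39.3%, and the wild type range lay inside that of the knockout mice (log2 fold change −0.18, SE 0.25). Without knockout replicate 3 the log2 fold change was 0.0052, and without knockout replicate 4 it was −0.43. The ratio of the CPM of *Irf8* to that of *Irf4* ran from 28.5 to 34.9 in WT and from 23.1 to 52.0 in KO mice. B-lineage markers, of which 14 were tested, varied as well, with a summed level between 178.1 and 401.8 CPM in WT and between 199.7 and 554.6 CPM in KO mice. The median log2 fold change of these markers was −0.080 with all mice and ran from −0.32 to 0.23 with 1 mouse omitted (0.11 without knockout replicate 3). None was called in edgeR with all mice and the filter, while *Rag1* was called, lower, without a filter on low counts (adjusted p = 0.0596) and without wild type replicate 1 (adjusted p = 0.193). In such mixed cells fewer cells of a type and less RNA per cell cannot be told apart, and the part of B-lineage cells in the spread of *Irf4* was not tested.

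The genes that act upstream of the family were counted from lists written by hand. Of 25 sensors, adaptors and kinases that lead to IRF3, IRF5 and IRF7, 24 were tested and 0 were called in either direction in edgeR. Of their log2 fold changes 16 were negative and 8 positive, with a median of −0.099. This median was −0.059 without wild type replicate 2, −0.064 without knockout replicate 4 and −0.145 without knockout replicate 3. At an unadjusted p under 0.05, where 2.07% of all genes were lower, there was 1 lower gene, *Ddx58*, the gene of the RNA sensor RIG-I, at 28.5 ± 3.94 CPM (SD, n = 3) in WT and 18.2 ± 5.53 CPM (SD, n = 4) in KO cells (log2 fold change −0.64, SE 0.24). The number lower at that level was 0 without wild type replicate 2 or knockout replicate 4 and 2 without knockout replicate 1. *Unc93b1*, which carries Toll-like receptors to endosomes, was the most abundant at 289.9 ± 34.5 CPM (SD, n = 3) and 276.4 ± 25.4 CPM (SD, n = 4). *Tlr2*, a receptor for bacterial lipoproteins, had 4.66 ± 0.681 CPM (SD, n = 3) in WT cells against 7.98 ± 1.92 CPM (SD, n = 4) in KO cells, with no overlap (unadjusted p = 0.0581, adjusted p = 0.999 in edgeR).

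Transcripts of type I interferons, whose genes IRF3 and IRF7 switch on, were at or under the limit of detection. Of 13 interferon genes listed, 10 had 0 reads in all 7 mice, *Ifnb1* and the listed *Ifna* genes among them. *Ifnk* and *Ifnz* had at most 2 reads in any mouse. A count of 0 allows up to 3 reads, or 0.535 to 0.851 CPM, per library, a limit that covers counting error only. *Ifng*, made by lymphoid cells, was the only interferon gene tested, with 30 to 64 reads in WT and 34 to 81 in KO mice (log2 fold change −0.039, SE 0.34).

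Of 18 genes of the interferon receptors and the JAK-STAT pathway, all were tested and 0 were called in edgeR, with 13 log2 fold changes negative, 5 positive and a median of −0.092. Among those at an unadjusted p under 0.05 were *Usp18* and *Ifnar1*, both with lower means in KO mice. The number at that level was 3, all lower, where 2.07% of all genes were lower, and 1 without knockout replicate 3, wild type replicate 2 or wild type replicate 3. *Ifnar1*, a subunit of the type I interferon receptor, stood at 44.8, 51.5 and 60.0 CPM in WT and 36.9, 42.6, 38.1 and 42.9 CPM in KO mice, without overlap (log2 fold change −0.38, SE 0.17, adjusted p = 0.999 in edgeR). *Usp18*, which restrains that receptor and is itself induced by interferon, had 12.4 ± 3.84 CPM (SD, n = 3) in WT and 6.26 ± 1.98 CPM (SD, n = 4) in KO cells.

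Genes known to be switched on through IRF sites had mostly negative differences. Of 37 interferon-stimulated effectors 34 were tested, with 0 called in either direction in edgeR, 29 log2 fold changes negative and 5 positive, and a median of −0.26 where that of all genes was −0.0014. Log2 fold changes below 0 made up 50.2% of all genes tested. An unadjusted p under 0.05 was found for 9 of these effectors, all lower in KO mice, where 2.07% of all genes were lower at that level. With 1 mouse omitted, 25 to 30 of these log2 fold changes were negative, the median ran from −0.51 to −0.26 and 6 to 10 genes were lower at that level. The median of −0.51 was found without knockout replicate 2, and 6 genes without wild type replicate 2 or 3 or knockout replicate 4. The summed level of the list was 911.4 to 1022 CPM in WT and 696.6 to 910.4 CPM in KO mice. Interferon gene lists that overlap this one had already been examined in these mice, so the count is not independent evidence of a direction.

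*Helz2*, a helicase induced by interferon, had the smallest p-value of the list. It stood at 39.1, 39.2 and 39.3 CPM in WT and 14.4, 27.2, 18.3 and 21.7 CPM in KO mice. All knockout mice were lower, and replicate 2, again the highest of them, was nearest to the wild type (log2 fold change −0.94, SE 0.22, adjusted p = 0.544 in edgeR). *Ifi27* was at 77.1 ± 18.6 CPM (SD, n = 3) and 44.8 ± 10.2 CPM (SD, n = 4), also without overlap (adjusted p = 0.769 in edgeR). *Ifi44* followed, with a log2 fold change of −1.26 (SE 0.40). The most abundant genes of the list, *Trim25* and *Mndal*, had log2 fold changes of −0.13 and −0.21. DESeq2 called *Helz2* and *Ifi27* (adjusted p = 0.0931 and 0.242), both lower. So did edgeR's likelihood ratio test (0.0881 and 0.182) and the edgeR fit without a filter on low counts (0.0255 and 0.0127), which also called *Ifi44* (adjusted p = 0.185).

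Of 29 genes of antigen presentation and interferon-induced GTPases tied to IRF1, 26 were tested and 0 were called in edgeR, with 19 log2 fold changes negative, 7 positive and a median of −0.29. An unadjusted p under 0.05 was found for 6, all lower in KO mice, where 2.07% of all genes were lower. This number was 1 without knockout replicate 4, 2 without wild type replicate 2, 3 without wild type replicate 1 and 7 without knockout replicate 2. The median was −0.15 without wild type replicate 2 and −0.30 without wild type replicate 3. *Gbp4*, a guanylate-binding protein, had 31.3 ± 11.7 CPM (SD, n = 3) in WT and 18.2 ± 5.78 CPM (SD, n = 4) in KO cells. *Tap2*, a peptide transporter subunit, had 291.2 ± 68.4 CPM (SD, n = 3) and 207.5 ± 42.2 CPM (SD, n = 4), and *Iigp1* was at −1.22 on the log2 scale (SE 0.48). *B2m*, the light chain of MHC class I, was the most abundant and ranged from 2007 to 3785 CPM in WT and from 1824 to 2408 CPM in KO mice. *Psmb8*, of the immunoproteasome, differed little, with a log2 fold change of −0.079 (95% interval −0.36 to 0.20).

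Marker lists of other cell types were read in the same fit. Of 12 macrophage markers, all were tested and 11 had a negative log2 fold change, with a median of −0.56, and 0 were called in edgeR. The ranges of 7 did not overlap, all lower in KO mice, where 2.79% of all genes had such ranges. Their summed level was 426.0 to 479.9 CPM in WT and 311.7 to 357.6 CPM in KO mice. *C1qc*, of the complement C1q of resident macrophages, was at 34.4 ± 2.56 CPM (SD, n = 3) in WT and 17.2 ± 1.12 CPM (SD, n = 4) in KO cells (adjusted p = 0.322 in edgeR, 0.0113 in DESeq2, 0.0106 in edgeR's likelihood ratio test and 0.0251 in edgeR without a filter on low counts). The likelihood ratio test also called *C1qa*, lower (adjusted p = 0.243). Of 15 neutrophil markers, 13 had a positive log2 fold change, with a median of 0.67, 0 called in edgeR and 0 at an unadjusted p under 0.05. Without a filter on low counts edgeR called *Ly6g*, higher (adjusted p = 0.0692). With 1 mouse omitted the median ran from 0.17, without knockout replicate 3, to 0.81, without knockout replicate 2 or wild type replicate 2, and 10 to 14 were positive. Without wild type replicate 1 it was 0.44. At an unadjusted p under 0.05 there were 5 higher genes without knockout replicate 2, where 1.7% of all genes were higher. There were 4 without knockout replicate 4, where 1.59% of all genes were higher. The summed level of the neutrophil markers was 16702 to 19021 CPM in WT and 18789 to 34655 CPM in KO mice, ranges that overlap, with the highest value in knockout replicate 3 and 22908 CPM as the highest without it. The lowest was that of knockout replicate 2, and without it the knockout mice began at 20946 CPM, above the wild type range. No marker of either list was at 0 in every mouse. The part of these cells in the differences of *Irf7*, *Irf9* and the interferon-stimulated genes was not tested.

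The genes around *Irf8* and *Irf4* had more positive than negative differences, a balance that turned for those tied to IRF8 when wild type replicate 3 was omitted. Of 14 DNA-binding partners 13 were tested, 0 were called in edgeR, and 10 had a positive log2 fold change, with a median of 0.068 that ran from 0.057 to 0.17 with 1 mouse omitted, the highest without knockout replicate 3. The AP-1 genes *Jun*, *Junb* and *Jund* had the smallest p-values and log2 fold changes of 0.58, 0.42 and 0.44. Of 26 genes of mononuclear phagocytes tied to IRF8, 23 were tested and 0 were called, with 15 positive and 8 negative and a median of 0.064. Without wild type replicate 3 there were 10 positive and 13 negative with a median of −0.018, and without knockout replicate 2 there were 12 and 11 with a median of 0.018. The highest median with 1 mouse omitted was 0.14. Those at an unadjusted p under 0.05 were *Klf4*, *Cx3cr1* and *Ly6c2*, all with higher means in KO mice, where 1.56% of all genes were higher at that level. This number was 1 without knockout replicate 2, 2 without wild type replicate 1 or 3, and 4 without wild type replicate 2 or knockout replicate 4. Without knockout replicate 3, 2 genes were lower at that level, where 2.31% of all genes were. *Klf4*, a monocyte transcription factor, had 167.3 ± 37.8 CPM (SD, n = 3) in WT and 271.6 ± 87.4 CPM (SD, n = 4) in KO cells (log2 fold change 0.70, adjusted p = 0.999 in edgeR). It was called, higher, in the edgeR fit without a filter on low counts (adjusted p = 0.0045). *Cx3cr1*, a chemokine receptor of monocytes, stood at 146.8, 147.3 and 118.2 CPM in WT and 182.7, 197.2, 186.3 and 148.7 CPM in KO mice, without overlap. *Cst3*, the most abundant of the list with *Ly6c2*, had a log2 fold change of 0.064.

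Plasmacytoid dendritic cells, which hold much *Irf7* and *Irf8*, were represented in both genotypes. Of 17 of their markers 16 were tested and 0 were called, with a median log2 fold change of 0.095, which ran from 0.0038 without wild type replicate 1 to 0.16 without knockout replicate 3, and their summed level was 1769 to 2308 CPM in WT and 1835 to 2269 CPM in KO mice. *Siglech*, a defining surface lectin named after its values were seen, was at 237.1 ± 76.1 CPM (SD, n = 3) and 237.6 ± 25.1 CPM (SD, n = 4). Of the remaining marker lists, the median log2 fold change was −0.11 for T and NK cells (12 tested), −0.36 for eosinophils, basophils and mast cells (10 tested), −0.24 for erythroid cells (8 tested of 12, with the 4 globin genes listed at 0 in every mouse) and −0.18 for stem and progenitor cells (14 tested), with 0 genes called in each in edgeR. At an unadjusted p under 0.05, where 3.63% of all genes lay, there were 2 genes of T and NK cells, 1 in each direction, and 2 of stem and progenitor cells, both lower. The eosinophil, basophil and mast cell markers had 10 of 10 log2 fold changes negative, 5 at that level, all lower, and 5 ranges without overlap, all lower, where 2.79% of all genes had such ranges. *Prg3* of this list, an eosinophil granule gene, was called, lower, by edgeR's likelihood ratio test (adjusted p = 0.243) and by edgeR without a filter on low counts (adjusted p = 0.115). Without knockout replicate 1, 4 of the T and NK cell genes were lower at an unadjusted p under 0.05, where 2.09% of all genes were. With 1 mouse omitted the median for T and NK cells ran from −0.32, without knockout replicate 1, to 0.021, without knockout replicate 4. That for erythroid cells ran from −0.63, without knockout replicate 4, to 0.0050, without wild type replicate 2. That for stem and progenitor cells ran from −0.24 to −0.12, the latter without wild type replicate 1, with 0 or 1 gene lower at that level in each omission.

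**Figure D4:**
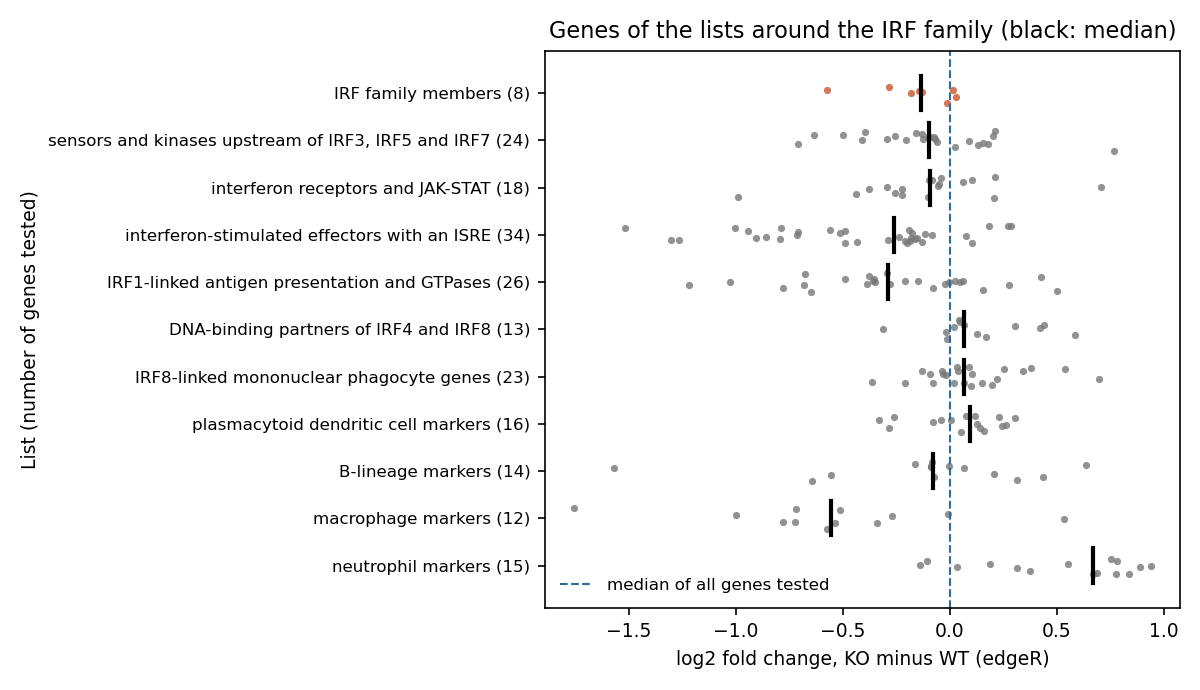
Log2 fold changes, knockout over wild type, of the genes tested in each list, 1 point per gene, with black lines for the list medians and a dashed line for the median of all genes tested. The medians run from −0.56 for macrophage markers to 0.67 for neutrophil markers (0.17 without knockout replicate 3), with the IRF family at −0.14 and the interferon-stimulated effectors at −0.26.

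The members showed no shared course across mice past a test. Over the 28 pairs of members, 0 had an adjusted p under 0.05 for Pearson r or Spearman rho, by exact permutation of the pairings over 7 mice, two-sided. At an unadjusted p under 0.05 there was 1 pair by Pearson r and 1 other pair by Spearman rho, *Irf7* with *Irf9*. The pair by Pearson r was *Irf1* with *Irf9* (Pearson r = 0.77, exact permutation p = 0.0444, adjusted p = 0.437, Spearman rho = 0.46, exact permutation p = 0.302). Leaving out the 2 mice farthest from the median of *Irf1* gave r = 0.84, and deviations from the genotype means gave r = 0.95. *Irf7* and *Irf9* had r = 0.69 (exact permutation p = 0.0782, adjusted p = 0.437) and rho = 0.82 (exact permutation p = 0.0341, adjusted p = 0.767), and deviations from the genotype means gave r = 0.32.

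Searched over 8514 genes with a mean of at least 10 CPM, the genes most like *Irf7* across the 7 mice were *Triobp*, *Ppic*, *Rnf138*, *Psmb5* and *Rcor1*, with Pearson r from 0.952 to 0.971. Those most like *Irf8* were *Ndufaf6*, *Pcmtd2*, *Gpr174*, *Mef2a* and *Cbx7*, with r from 0.940 to 0.955. The closest gene to each of the other members had r between 0.957 and 0.995. A pair of list genes stood at the top of such a search and were named after their values were seen, *Slc15a4* for *Irf5* (r = 0.983) and the B-cell adaptor gene *Blnk* for *Irf4* (r = 0.970). These values describe the same 7 libraries, which differ in depth and genotype, and the median size of r over all genes was between 0.304 and 0.431, so single high values carry little weight.

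The IRF2-binding proteins, corepressors named for their contact with IRF2, completed the family's surroundings. *Irf2bp2* was the most abundant, at 242.9 ± 13.6 CPM (SD, n = 3) in WT and 237.7 ± 24.3 CPM (SD, n = 4) in KO cells. *Irf2bp1* stood at 93.6 ± 24.6 and 87.7 ± 9.55 CPM, and *Irf2bpl* at 28.7 ± 2.18 and 33.2 ± 11.4 CPM. None of them was called in edgeR (0 of 3, also 0 at an unadjusted p under 0.05), and their log2 fold changes ran from −0.096 to 0.21.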

How the data were processed

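The authors sequenced 3′ end libraries of 500 ng RNA as 75 bp single reads. By their methods, STAR aligned the reads to GRCm38 and counted them on Ensembl genes. The deposited rows hold symbols such as *Rn45s* and *LOC102632231*, and the annotation behind them was not checked. The deposited counts are whole reads per gene symbol for each mouse, not normalized. The rows at the end that name no gene, 29.4% to 33.6% of reads, were left out. Strand of counting is not given in the sources used here. Within a genotype no pair of libraries agreed within sampling noise.

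Counts were fitted in edgeR 4.0.16 (R 4.3.3) over all genes, with filterByExpr, TMM factors and the robust quasi-likelihood test with Benjamini-Hochberg adjustment. The standard error is the log2 fold change divided by the square root of F. A gene was called at an adjusted p under 0.25, the threshold of the study. In counts simulated for this comparison over 11012 genes, the fit recovered 87 of 100 genes with a log2 change of 1 and 98 of 100 with a log2 change of 2, with 67 false calls among 252. The fit of the data made 2 calls, so the adjusted threshold was easier to reach in the simulation. The numbers recovered therefore do not give the chance of calling a changed gene here. Correlations used log2(CPM + 1). DESeq2 1.42.0, limma 3.58.1 (voom), other factors and filters, omission of *Rn45s*, a replicate block and omission of each mouse were alternatives. Gene positions were read from GENCODE M21 (GRCm38).

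The members and lists were chosen with earlier results of these data known. Named genes were the members, the IRF2-binding proteins, *Hdgfl2*, and the 3 list genes with the smallest p and the 2 with the highest level, not all of which are described, and some are not reported here. List genes called only in an alternative fit were named after their values were seen. For *Irf7* and *Irf8* the 5 genes most like them were named.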

Additional observations from a re-analysis of the deposited data

Results flagged for a closer look

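The 4 knockout values of 76 genes were searched for 1 that lies apart, by the gap to the nearest mouse relative to the range, and 5 stood out, where chance flags about 1 in 20 groups. Among these was a member of the family: *Irf9* at 91.2 CPM in knockout replicate 2, against 87.0 to 87.6 CPM in the other knockout mice, a small gap in a narrow range. In the same mouse *Cst3* was at 1092 CPM and *Nkg7* at 337.9 CPM, each above the other knockout mice. *Cd8a* was at 15.4 CPM in knockout replicate 4, below the others, and *Ifnk* at 0.374 CPM in knockout replicate 3, from 2 reads.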

How the results depend on the processing

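The number of IRF members called was 0 in all 17 alternative fits, and the smallest adjusted p of any member in them was 0.949. *Irf1*, *Irf5*, *Irf7* and *Irf9* kept a negative log2 fold change in all 17, from −0.78 to −0.39 for *Irf7*, from −0.37 to −0.21 for *Irf9*, from −0.25 to −0.050 for *Irf5* and from −0.27 to −0.0044 for *Irf1*, which ends close to 0. The sign of the other 4 depended on which mouse was left out: with 1 mouse omitted, the log2 fold change ran from −0.12 to 0.18 for *Irf2*, from −0.060 to 0.093 for *Irf3*, from −0.43 to 0.0052 for *Irf4* and from −0.087 to 0.063 for *Irf8*. *Hdgfl2* was called in each fit that tested it. Over all genes 2 were called, and 0 of the list genes. These numbers were 21 and 3 with DESeq2, 29 and 5 with the likelihood ratio test, and 41 and 8 without a filter on low counts. With at least 10 counts in every mouse 1 gene was called. With 1 mouse omitted they ran from 2 to 7 and from 0 to 1, the highest of both without wild type replicate 1. The cause was not tested. Same-numbered mice did not deviate together (r from −0.21 to −0.025), and unlike-numbered mice had r from −0.12 to 0.22. So few values cannot show whether the numbers stand for a pairing. With the replicate block 1 gene was called over all genes, and *Irf7* had a log2 fold change of −0.66 and *Irf4* of −0.47, neither called. Depth was lowest for *Irf7*, with 55 to 130 reads per mouse. The counts and medians of the lists without each mouse were added after the data were seen.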
